A study of Rattus norvegicus with 12 samples.

Results

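Chaperones and protein folding factors were followed across the 12 arrays as the probes whose gene symbol named a small heat shock protein, an HSP60, HSP70, HSP90 or HSP110 protein or mitochondrial co-chaperonin (Hspa, Hspb, Hspd, Hspe, Hsph and Hsp90 symbols), a J-domain protein (Dnaja, Dnajb and Dnajc symbols), a subunit of the cytosolic chaperonin (Cct2 to Cct8 and symbols that begin in the same way), a protein disulfide isomerase with a Pdia symbol, or Hyou1, Calr or Canx. The rule used names alone and no measured value. It found 77 probes for 75 genes, of 22523 probes on the array and 13337 genes with a named probe. Of the 77 probes, 62 (61 genes) were detected on at least 2 of the 12 arrays and were tested, 52 were detected on all 12, and 14 were detected on none. The 14 undetected probes were those of Cct8l2, Dnajb8, Dnajb12, Dnajc5b, Dnajc28, Hspa1b, Hspa12b, Hspb3, Hspb7, Hspb9, Hsph1, Hyou1 and Pdia5 and 1 of the 2 probes of Hsp90ab1, and Dnajc16 was detected on 1 array. Hspa8 and Hspa1a, the constitutive and one of the inducible cytosolic HSP70 genes, had no probe of that name, and unnamed probes were not searched.

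The arrays came from hippocampal cultures of embryonic day 18.5 Sprague Dawley rats, grown for 12 days over a feeder layer of glia, with RNA pooled from 3 coverslips per sample. All cultures were first kept for 3 h in a cocktail that silences synapses and spikes (100 nM TTX, 50 µM D-APV, 40 µM CNQX). Block cultures stayed silenced, whereas Activity cultures were stimulated for 5 min with 50 µM bicuculline and 500 µM 4-aminopyridine, which release inhibition and block potassium channels. Each was run with 25 µM actinomycin D (ActD), which stops transcription, or with its DMSO vehicle, and harvested at 5, 30 or 60 min, giving 12 groups of 1 array each, all labelled replicate 3. Rinses and a pre-incubation came before the stimulus, so at the 5 min harvest the exposure to ActD had already lasted longer than 5 min.

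Molecular chaperones bind unfolded or partly folded proteins and keep them from aggregating. HSP70 proteins do so in cycles of ATP hydrolysis that J-domain proteins start and nucleotide exchange factors such as the HSP110 proteins end, HSP90 proteins act late on client kinases and receptors, small heat shock proteins hold unfolded proteins without ATP, and the chaperonins enclose them in a chamber. In the endoplasmic reticulum (ER), BiP (Hspa5), GRP94 (Hsp90b1), the lectins calnexin and calreticulin and the disulfide isomerases fold secreted and membrane proteins. Heat shock factors induce many of the cytosolic genes through heat shock elements, and the unfolded protein response induces the ER genes through ER stress response elements. In neurons, chaperones also serve the synapse, where auxilin (Dnajc6) and HSC70 strip clathrin from vesicles.

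RefSeq promoter windows, from 250 bases before to 50 bases after the annotated start in the rat assembly GRCr8, matched 62 of the 75 genes. The ER stress response element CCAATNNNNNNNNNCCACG, searched on both strands, lay in 22 of all 33469 windows (0.0657%) and in those of 5 chaperone genes, all of them ER chaperones. Their 60-base stretches are shown because these 5 genes differed in their calls below, although differences between the genes were not tested. Each is written 5′ to 3′ on the strand of its gene, with the match in capitals, and Calr carried it on the opposite strand.
Hspa5 (chr3:38452953-38453012, + strand): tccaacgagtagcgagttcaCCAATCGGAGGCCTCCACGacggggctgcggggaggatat
Hsp90b1 (chr7:23012430-23012489, - strand): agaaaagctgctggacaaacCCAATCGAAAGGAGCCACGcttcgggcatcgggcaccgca
Calr (chr19:40213117-40213176, + strand): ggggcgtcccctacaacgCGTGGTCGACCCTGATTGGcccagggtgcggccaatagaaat
Canx (chr10:35158048-35158107, - strand): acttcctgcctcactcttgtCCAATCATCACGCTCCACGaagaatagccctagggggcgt
Dnajc3 (chr15:102432514-102432573, + strand): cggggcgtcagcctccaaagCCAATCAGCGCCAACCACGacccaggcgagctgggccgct

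The heat shock element of 3 inverted units, GAANNTTCNNGAA on either strand, lay in 267 windows (0.798%) and in those of Hspd1, Hspe1, Dnaja1, Cct4 and the undetected Hsph1. The 4 measured genes are shown, with the matches in capitals. Hspd1 and Hspe1, which encode HSP60 and its co-chaperonin HSP10, lie head to head, and the 18 capitals of each, which hold 2 overlapping matches, are the same bases of chromosome 9 read from opposite strands.
Hspd1 (chr9:64084228-64084287, - strand): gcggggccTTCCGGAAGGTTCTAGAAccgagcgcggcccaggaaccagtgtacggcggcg
Hspe1 (chr9:64084239-64084298, + strand): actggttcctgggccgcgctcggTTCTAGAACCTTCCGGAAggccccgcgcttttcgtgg
Dnaja1 (chr5:60638390-60638449, + strand): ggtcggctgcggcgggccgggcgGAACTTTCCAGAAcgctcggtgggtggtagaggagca
Cct4 (chr14:101193047-101193106, + strand): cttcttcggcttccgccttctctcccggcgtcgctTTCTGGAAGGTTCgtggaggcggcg

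The shorter form GAANNTTC, which the longer element contains, lay in 2875 windows (8.59%) and in those of 14 of the 62 chaperone genes. The stretches of 3 small heat shock protein genes are shown because all of these genes were lower at the later harvests. All 3 held the form GAAGTTTC. These letters were read from the 3 windows themselves, so their share of all windows, 466 (1.39%), is a description only. Among chaperone genes Hspa9 alone also held them. Hspa9, and Dnaja1 and Hspd1 with other versions of the shorter form, were called higher at the later harvests. The remaining tested genes with it were not called. A match describes the letters of the window and does not establish a bound site.
Hspb1 (chr12:26432397-26432456, - strand): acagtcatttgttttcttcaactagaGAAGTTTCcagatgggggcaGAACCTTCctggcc
Hspb6 (chr1:94934197-94934256, + strand): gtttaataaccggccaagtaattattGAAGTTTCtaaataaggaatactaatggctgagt
Hspb8 (chr12:45837259-45837318, + strand): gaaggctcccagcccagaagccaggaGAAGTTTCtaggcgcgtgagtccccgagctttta

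Levels are given as log2 intensity after background correction and quantile normalization, and differences as log2 units ± the standard error of the fit. A probe was called when limma's test, adjusted by Benjamini-Hochberg over all 11792 probes tested, gave an adjusted p under 0.05. Since each group held 1 array, the harvests stood in for replicates of a treatment, and the treatments for replicates of a harvest, so p-values measure only the spread between these arrays, which may be technical. Total intensity per array ranged from 10858233 to 13824776, probes detected from 9751 to 11032, and chaperone probes detected from 54 to 61. The fewest probes were detected on the arrays of 5 min with ActD, 9751 for Block and 10001 for Activity, beside 10108 or more on the others. On these arrays 56 and 57 chaperone probes were detected. The part of this lower detection in the ActD differences below was not tested. In a principal component analysis the leading axis, with 69.1% of the variance, had scores of -59.1 to -22.6 at 5 min and of 13.2 to 31.3 later. Summed normalized intensities of marker genes also differed by harvest: the 7 microglia markers tested summed to 1025 to 1627 at 5 min and 171 to 212 later (7 of 7 lower, Ptprc undetected), and the 12 neuron markers to 21723 to 29811 at 5 min and 31770 to 43442 later (11 of 12 higher). Astrocyte markers summed to 47963 to 54542 and 45279 to 52744 (3 of 7 higher, 2 lower), oligodendrocyte lineage markers to 15037 to 16323 and 14294 to 16729 (1 of 8 higher, 2 lower, Mobp undetected), and markers of fibroblasts and vessels to 1405 to 1692 and 875 to 1409 (1 of 6 higher, 3 lower, Vwf undetected), and the 1 tested marker of dividing cells had levels of 896 to 1033 and 709 to 1075 and was not called. In such bulk RNA, fewer cells of a type and less RNA per cell cannot be told apart. Harvest and any difference between culture preparations also cannot be told apart, since each harvest was made once per treatment.

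Classes of chaperones differed in their median steadiness across the 12 arrays, with wide overlap between genes of different classes. Among probes detected on all arrays, the range from lowest to highest array had a median of 0.38 log2 units over 6 CCT subunits, 0.37 over 5 ER lectins and disulfide isomerases, 0.60 over 28 J-domain probes and 0.84 over 6 HSP70 and HSP110 genes. It reached 1.76 over 3 small heat shock proteins and 2.12 over 2 HSP90 genes, beside 0.60 over all 52 such chaperone probes and 0.70 over all 8500 such probes of the array. The steadiest of the 52 was Calr, which encodes calreticulin, with levels between 13.42 and 13.59 and a range of 0.17. Hspb1, which encodes HSP27, had the widest range, 3.17. Single ranges ran from 0.19 to 1.89 over the J-domain probes and from 0.40 to 1.87 over the HSP70 and HSP110 genes.

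**Figure D1:**
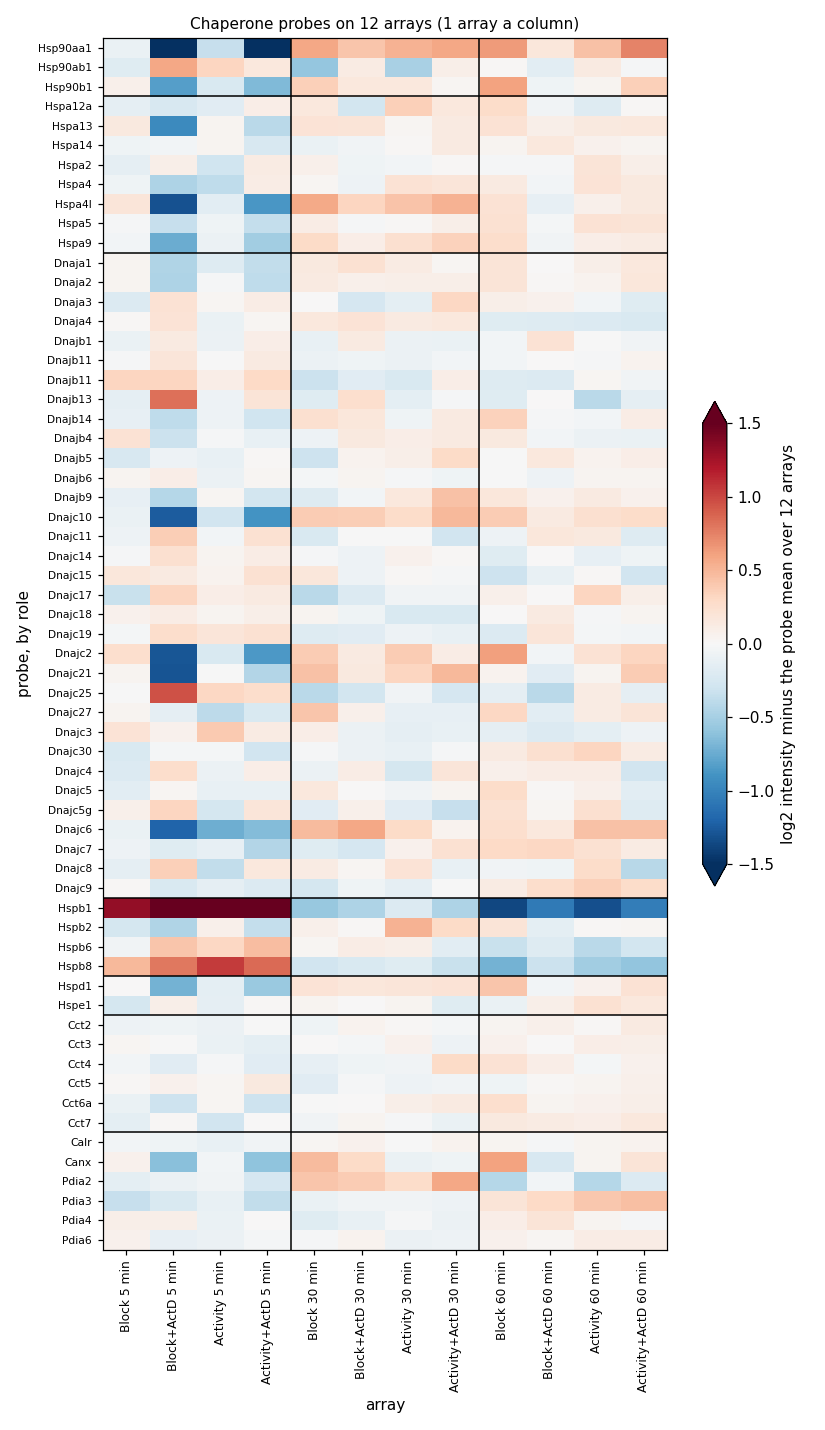
Log2 intensity of each of the 62 tested chaperone probes (rows, grouped by role between black lines) on the 12 arrays (columns, grouped by harvest), as the difference from that probe's mean; colours saturate at 1.5 log2 units. Hspb1 and Hspb8 are high on the 4 arrays of 5 min, and Hsp90aa1, Hspa4l, Dnajc10 and Dnajc2 are low on the 2 arrays of 5 min with ActD.

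The comparison of the later harvests with 5 min asked how chaperone RNA differed as time passed after the stimulus or mock change of medium. Of the 4 small heat shock proteins tested 3 were called lower later and 1, Hspb2, which was near background, higher. In contrast, 2 of 3 HSP90 probes, 5 of 8 HSP70 and HSP110 genes and 1 of the 2 mitochondrial chaperonin genes were called higher. Of the 62 chaperone probes, 29 were called (46.8%), near the 49.3% of all probes. By direction, 21 were higher (33.9%, beside 25.9% of all probes) and 8 lower (12.9%, beside 23.4%), and the median difference was 0.11, beside -0.01 over all probes. With scaling to equal totals in place of quantile normalization the split was 29 higher and 5 lower, beside 33.1% and 15.8% of all probes.

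Small heat shock proteins carried the largest fall. For Hspb1 the 4 arrays of 5 min gave 9.21 (Block), 9.70 (Block with ActD), 9.61 (Activity) and 9.57 (Activity with ActD), those of 30 min gave 7.33, 7.44, 7.70 and 7.44 in the same order, and those of 60 min gave 6.53, 6.84, 6.58 and 6.86. No array of one harvest overlapped with those of another, whatever the stimulus or ActD, a stepwise fall shared by 187 of all probes (1.59%) and by no other chaperone. The later harvests differed from 5 min by -2.43 ± 0.09, a 5.40-fold lower level (adjusted p = 1.69e-10, limma), and it fell by a further 0.78 ± 0.11 from 30 to 60 min (adjusted p = 0.000399).

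Hspb8, the small heat shock protein that works with BAG3 in selective autophagy, followed the same order without the last clear step. Its arrays gave 10.07, 10.37, 10.63 and 10.43 at 5 min, 9.29, 9.35, 9.39 and 9.25 at 30 min and 8.87, 9.25, 9.05 and 8.98 at 60 min, again from Block to Activity with ActD. All 4 arrays of 5 min lay above the 8 later ones, which was true of 12.4% of all probes and of Hspb1 and Hspb8 alone among chaperones. The difference was -1.19 ± 0.08, or 2.28-fold (adjusted p = 5.80e-08, limma). Hspb6 (HSP20) ranged from 8.81 to 9.33 at 5 min and from 8.46 to 8.99 later, with overlap, and differed by -0.42 ± 0.09 (adjusted p = 0.00149). Without the 2 arrays of 5 min with ActD the differences of Hspb1 and Hspb8 were -2.37 and -1.20, and Hspb6 was no longer called. The fall of the microglia markers went with these falls, and its part in them was not tested. Hspb2, the fourth small heat shock protein tested, was called higher later (0.38 ± 0.11, adjusted p = 0.0108). It was detected on no array of 5 min and on 3 later ones, so that it is given without a fold. With its levels of 5 min raised to the lowest detected level of each array, the difference was -0.19, so a rise is not shown.

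Among the co-chaperones and regulators listed beside the chaperones, Bag3, the partner of Hspb8, was also lower later. Its arrays gave 9.98, 10.28, 10.38 and 10.33 at 5 min, 9.22, 9.36, 9.45 and 9.31 at 30 min and 8.75, 9.16, 8.83 and 8.80 at 60 min. Every array of 5 min lay above every later one, with a difference of -1.13 ± 0.08 (2.19-fold, adjusted p = 7.61e-08, limma). Bag3 was also called lower at 60 than at 30 min (-0.45 ± 0.09, adjusted p = 0.00679), with no overlap between these harvests.

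**Figure D2:**
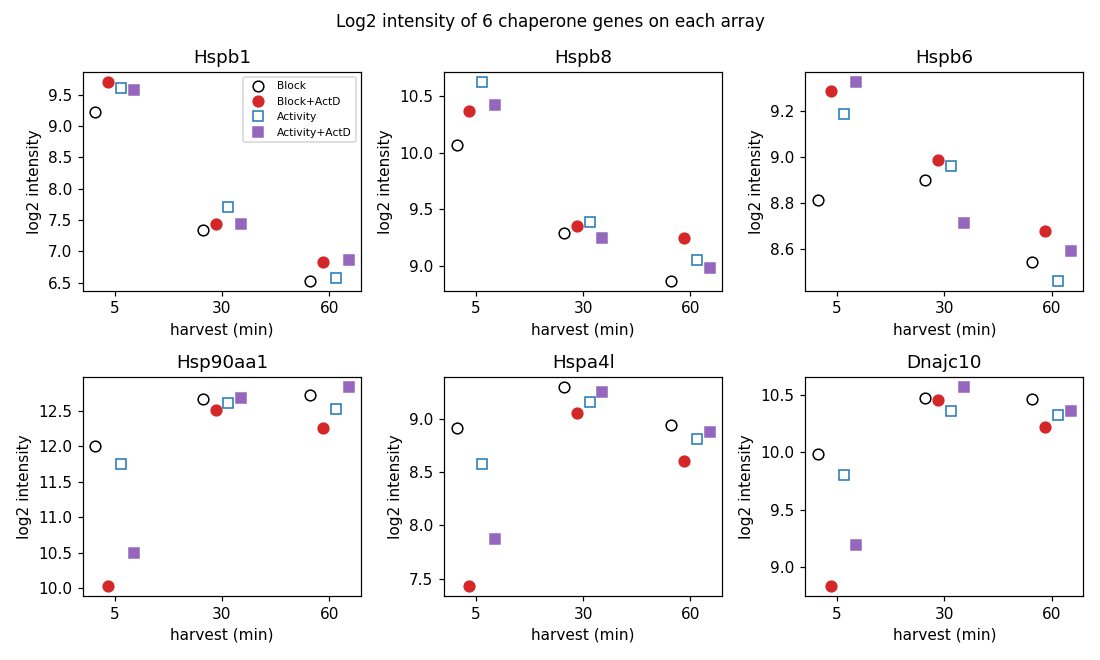
Log2 intensity (vertical axes, each with its own range) of 6 chaperone genes by harvest in minutes, 1 point per array; open circles are Block, filled red circles Block with ActD, open squares Activity and filled purple squares Activity with ActD. Hspb1 and Hspb8 fall from 5 min on in all 4 treatments, while Hsp90aa1, Hspa4l and Dnajc10 are lowest on the 2 arrays of 5 min with ActD.

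Of the HSP90 genes, Hsp90aa1, the stress-inducible cytosolic form, was higher later. Its arrays gave 12.00, 10.03, 11.75 and 10.50 at 5 min, 12.67, 12.51, 12.61 and 12.68 at 30 min and 12.73, 12.26, 12.53 and 12.84 at 60 min. All 4 arrays of 5 min lay below the 8 later ones, as for Calr, Dnajb14, Dnajc6, Dnajc10 and Pdia3 among chaperones and 12.9% of all probes. The difference was 1.53 ± 0.22 (2.90-fold, adjusted p = 6.87e-05, limma), but was 0.76 ± 0.08 in cultures without ActD (adjusted p = 1.79e-06). Hsp90b1 in the ER was higher by 0.61 ± 0.10 (adjusted p = 0.000226), and by 0.36 ± 0.10 without ActD (adjusted p = 0.00896). The tested probe of Hsp90ab1, the constitutive cytosolic form, was dim (4.90 to 6.07), detected on 10 arrays and not called.

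HSP70 and HSP110 genes stood above 0 in 8 of 8 cases, beside 5744 of 11792 probes, and 5 were called higher, beside 25.9% of all probes. Hspa12a, not called, was detected on only 4 arrays. Hspa4 was called but dim (5.08 to 5.77), and its call was lost when certain single arrays were left out. Hspa4l, an HSP110-type exchange factor, differed by 0.80 ± 0.15, the mitochondrial HSP70 Hspa9 by 0.53 ± 0.08 and BiP, Hspa5, by 0.30 ± 0.06 (adjusted p = 0.000675, 0.000123 and 0.000920, limma). In cultures without ActD Hspa4l differed by 0.30 ± 0.09 and Hspa9 by 0.29 ± 0.06, both still called. BiP arrays lay between 11.62 and 11.96 at 5 min and between 11.95 and 12.21 later, so that they overlapped at their edges. Of the mitochondrial pair, Hspd1 was higher by 0.53 ± 0.09 (adjusted p = 0.000198), whereas Hspe1 differed by 0.11 ± 0.08 (adjusted p = 0.283). Without ActD both were called higher, Hspd1 by 0.29 ± 0.07 and Hspe1 by 0.25 ± 0.09. With background correction and median scaling both calls, and those of Hspa4l and Hspa9 without ActD, were lost. The call of Hspd1 without ActD was also lost with scaling to equal totals.

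J-domain proteins, the most numerous class, had 9 of 33 probes called higher and 5 lower, beside 25.9% and 23.4% of all probes. Auxilin, Dnajc6, gave 7.88, 6.78, 7.25 and 7.33 at 5 min and between 8.04 and 8.57 later, a difference of 1.01 ± 0.15 (2.01-fold, adjusted p = 9.33e-05, limma) without overlap. The neuron markers were higher on the same arrays, and their part in this difference was not tested. Dnajc10 (ERdj5), a disulfide reductase of the ER, differed by 0.95 ± 0.14, Dnajc2, a ribosome-associated J-domain protein, by 0.79 ± 0.14, Dnajc21 by 0.63 ± 0.16, and the cytosolic Dnaja1 and Dnaja2 by 0.36 ± 0.07 and 0.31 ± 0.07. Without ActD the difference was 0.52 ± 0.08 for Dnajc10 and 0.39 ± 0.10 for Dnajc2. The ER protein Dnajb9 was also called higher, with 8.23 to 8.69 at 5 min and 8.47 to 9.11 later. Lower later were Dnajc25 by -0.57 ± 0.15, Dnajb13 by -0.31 ± 0.11, the ER proteins Dnajb11 (1 of 2 probes) by -0.39 ± 0.09 and Dnajc3 by -0.29 ± 0.08, and Dnajc19 of the mitochondrial import motor by -0.24 ± 0.07. Dnajb13, detected on 4 arrays, and Dnajc3 lost their calls with scaling to equal totals and with background correction and median scaling. Dnajc19 lost its call with scaling to equal totals. The second probe of Dnajb11 did not pass, and neither did Dnajb1, Dnajb5 or Dnajc5, the cysteine string protein of synaptic vesicles.

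Of the ER lectins and isomerases, Pdia3 (ERp57) was higher by 0.39 ± 0.06 and Canx, calnexin, by 0.45 ± 0.12 (adjusted p = 0.000147 and 0.00683, limma). Pdia3 arrays lay between 10.13 and 10.39 at 5 min, between 10.40 and 10.45 at 30 min and between 10.69 and 10.94 at 60 min, so that each harvest stood above the one before, as for 0.882% of all probes and no other chaperone. Calr differed by 0.10 ± 0.04 and missed the threshold (adjusted p = 0.0578), although its 4 arrays of 5 min lay below the others, and Pdia4 and Pdia6 were not called. Of the cytosolic chaperonin subunits, Cct6a alone was called (0.26 ± 0.07, adjusted p = 0.00473). Of the 29 calls, 14 were kept when both arrays of 5 min with ActD were left out, among them those of Hspb1, Hspb8, Hsp90aa1, Dnajc6, Dnajc10 and Pdia3. Among those lost were Canx, Cct6a, Dnaja1, Dnaja2, Dnajc21 and Hspb6.

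In cultures without ActD, 18 chaperone probes were called between later harvests and 5 min (29.0%, beside 32.4% of all probes). Of these 13 were higher (beside 17.8% of all probes) and 5 lower (beside 14.6%), and with background correction and median scaling 3 were higher and 7 lower, beside 12.6% and 20.0% of all probes, so the direction of the group rests on the scaling. Scaling to equal totals moved the median of all probes in this contrast to 0.10, from 0.03. The calls of Hspb1 (-2.37 ± 0.12), Hspb8, Hsp90aa1 and Dnajc10 held under both scalings and when any single array was left out. Without the Activity array of 5 min, 7 members were called.

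The step from 30 to 60 min was smaller. It called 5 of 62 chaperone probes, beside 6.47% of all probes. Apart from Hspb1, Pdia3 was higher at 60 min by 0.40 ± 0.07 (adjusted p = 0.00319, limma), the histone co-chaperone Dnajc9 was higher by 0.37 ± 0.09 (adjusted p = 0.0274) and Dnaja4 was lower by -0.37 ± 0.08 (adjusted p = 0.0136). Dnaja4 gave 8.72, 8.77, 8.69 and 8.72 at 30 min and 8.38, 8.36, 8.36 and 8.33 at 60 min, with no overlap. Pdia2 was detected on 3 arrays of 30 min and on none of 60 min, and was called lower at 60 min (adjusted p = 0.00381). With its levels of 60 min raised to the lowest detected level of each array, it was higher at 30 min by 0.12. That value is not a lower bound, because not every array of 30 min detected it, so no fold is given. Dnaja4 and Dnajc9 lost their calls with median scaling. Leaving out the Activity array of 30 min, or either 60 min array with ActD, left 3 calls.

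The comparison of cultures with and without ActD asked which chaperone RNA was lower once transcription was blocked. Taken over all harvests, no chaperone was called, nor was any probe (0%, limma), although 13 of 62 chaperone probes and 2167 of all probes had an unadjusted p under 0.05. The lowest p values were those of Dnajc2 (-0.54), Hsp90b1, Dnajb13, Hspa9 and Canx, with an adjusted p of 0.170 for Dnajc2. Without the Block array of 30 min with ActD, 4 chaperones were called, Canx, Dnajc2 and Hsp90b1 among them.

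The effect of ActD differed between 5 min and the later harvests. The test of that difference called 11 chaperone probes (17.7%, beside 9.3% of all probes), 10 of them in the direction of a larger deficit at 5 min than later (beside 7.56% of all probes). At 5 min alone, a contrast added after the values were seen, 18 were called (29.0%, beside 20.4% of all probes), with 14 lower under ActD (22.6%, beside 12.4%) and 4 higher (beside 7.95%). With scaling to equal totals the split was 16 lower and 1 higher, beside 12.2% and 2.06% of all probes, and with median scaling 19 and 1, beside 17.5% and 0.695%. Over the later harvests no chaperone and no other probe was called (0%, limma), with 3 chaperone probes and 924 of all probes at an unadjusted p under 0.05.

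Hsp90aa1 showed the largest deficit. At 5 min it gave 10.03 and 10.50 with ActD and 12.00 and 11.75 without, while at 30 and 60 min arrays with ActD (12.26 to 12.84) and without it (12.53 to 12.73) overlapped. The ActD effect at 5 min was -1.61 ± 0.09 (3.05-fold lower, adjusted p = 1.15e-07, limma), the later one -0.07, and the difference between them 1.55 ± 0.11 (adjusted p = 3.92e-06). Hspa4l gave 7.43 and 7.87 with ActD and 8.92 and 8.58 without at 5 min, an effect of -1.10 ± 0.10 (2.15-fold lower), and -0.11 later. For both genes the arrays of 5 min with ActD lay below the other 10, as they did for 19 of 62 chaperone probes (30.6%) and 18.7% of all probes. They lay above the other 10 for 5 chaperone probes and 19.7% of all probes.

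Of the 33 J-domain probes, 5 were called lower and 3 higher at 5 min with ActD, beside 12.4% and 7.95% of all probes. Their median effect was 0.09, beside 0.06 over all probes. Dnajc2 gave 8.40 and 8.82 with ActD and 9.92 and 9.45 without (-1.08 ± 0.12), and Dnajc10 gave 8.83 and 9.19 with ActD and 9.99 and 9.80 without (-0.88 ± 0.09). Neither pair overlapped. Dnajc21, which serves ribosome biogenesis, differed by -0.88 ± 0.16 and lost its call without the Block array of 5 min with ActD, where it was lowest (4.94, against 5.79 on the Activity array). It was detected on 11 arrays but not on that Block array, so the size of its effect rests on a value near background. Dnaja2 and Dnaja1 differed by -0.43 ± 0.07 and -0.34 ± 0.08, and Dnaja1 lost its call when any 1 of 3 arrays of 5 min was left out. Higher at 5 min with ActD were Dnajb13, Dnajc8, the mitochondrial Dnajc11 and Cct7 (0.23 to 0.62), and each of these 4 lost its call without the Block array of 5 min with ActD.

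Only Hspd1 of the mitochondrial chaperonin pair was called at 5 min with ActD. Hspd1 gave 12.52 and 12.68 with ActD at 5 min and 13.24 and 13.09 without, an effect of -0.56 ± 0.08 (adjusted p = 0.000245, limma). Hspe1, whose start lies on the other side of the same heat shock element shown above, gave 10.16 and 10.09 with ActD and 9.81 and 9.93 without, an effect of 0.25 ± 0.10 that missed the threshold (adjusted p = 0.0859). The 2 effects had opposite signs, and the difference between the probes was not tested. Hspa9 was lower by -0.57 ± 0.07 (adjusted p = 5.31e-05).

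The 5 ER chaperones that share the ER stress response element were not all called, and differences between these genes were not tested. With ActD at 5 min, Hsp90b1 was lower by -0.67 ± 0.11, Canx by -0.63 ± 0.16 and Hspa5 by -0.31 ± 0.08 (adjusted p = 0.000520, 0.0114 and 0.0101, limma), while Calr (0.01 ± 0.06) and Dnajc3 (-0.20 ± 0.11) were not called. The adjusted p of Calr was 0.911. The call of Hspa5 was lost when any 1 of 3 arrays of 5 min was left out, and so was that of Canx. Hspa13, a microsomal HSP70, was lower by -0.77 ± 0.12 (adjusted p = 0.000373). Of the cytosolic chaperonin, Cct6a was lower (-0.27 ± 0.08) but lost its call when any 1 of 3 arrays of 5 min was left out, and 4 other subunits were not called.

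**Figure D3:**
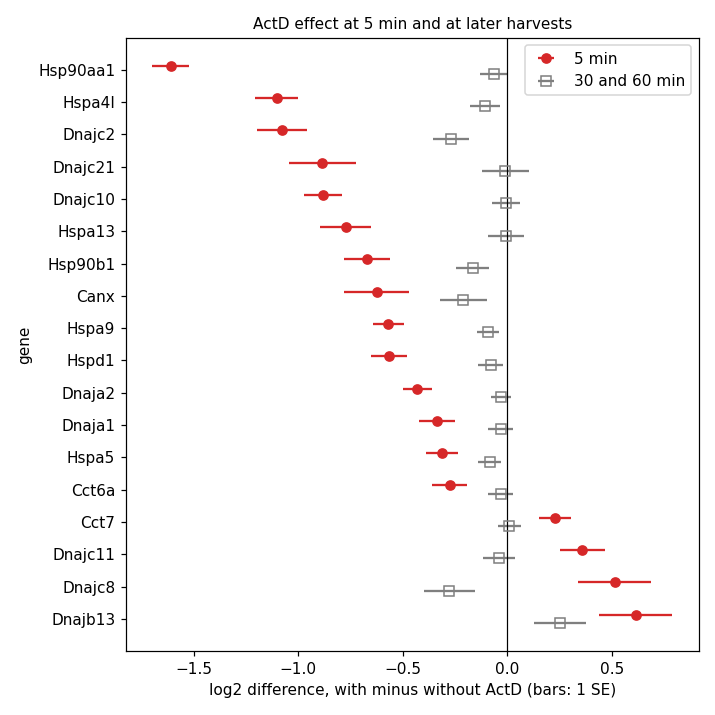
ActD effect (log2, with minus without ActD, bars 1 standard error) at 5 min (filled circles) and over 30 and 60 min (open squares) for the 18 chaperone genes called at 5 min. From Hsp90aa1 (-1.61) to Cct6a (-0.27) 14 genes lie below 0 at 5 min, and the later effects lie nearer to 0.

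These contrasts share arrays: the low values of 5 min with ActD enter both the ActD effect at 5 min and the difference between harvests. The neuron markers summed to 21723 to 24526 on those arrays and to 23464 to 29811 without ActD at 5 min, with overlap, and their part in the chaperone differences was not tested. Leaving out the Block array of 5 min with ActD reduced the calls at 5 min to 10 and those of the difference between harvests to 5, and leaving out the Activity array of 5 min reduced the latter to 6. Hsp90aa1, Hspa4l, Dnajc10, Dnajc2 and Hspa9 were the 5 whose difference kept its call without the Block array of 5 min with ActD.

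The comparison of Activity with Block asked which chaperones responded to synaptic stimulation. No chaperone probe and no other probe was called without ActD (0%), with ActD (0%) or in the difference between both effects (0%, all limma), while 6, 4 and 4 of 62 chaperone probes, and 884, 338 and 755 of all probes, had an unadjusted p under 0.05. Without ActD the lowest p values belonged to Hspb8 (0.28 ± 0.11), Dnajc27 (-0.39 ± 0.15), Hsp90b1 (-0.35 ± 0.14), Canx (-0.42 ± 0.16) and Dnajc17 (0.35 ± 0.13), all with an adjusted p of 0.654. With ActD they belonged to Dnajc21 (0.58 ± 0.21), Dnajb1 (-0.18 ± 0.07), Hspa4 (0.34 ± 0.14), Dnajb13 (-0.34 ± 0.15) and Dnajc11, with an adjusted p of 0.996. Hspb1 differed by 0.27 ± 0.12 without ActD. The small heat shock proteins stood above 0 in 4 of 4 cases without ActD, beside 6275 of 11792 probes, and in 1 of 4 with ActD, beside 5602.

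Several chaperones lay on opposite sides of 0 with and without ActD. For 9 of 62 chaperone probes the sign of Activity minus Block was the same at all 3 harvests without ActD and the opposite at all 3 with ActD, beside 7.28% of all probes. Dnaja2, Dnajc10, Dnajc21, Hsp90aa1, Hspa4l, Hspa9 and Hspd1 were lower with Activity without ActD and higher with it, and Dnajb1 and Dnajc11 the reverse. The formal test of the difference gave its lowest p values for Hsp90b1 (0.50 ± 0.19) and Hspb8 (-0.39 ± 0.15), with an adjusted p of 0.705. Each sign rests on pairs of single arrays, and the effects with and without ActD have separate Block controls.

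**Figure D4:**
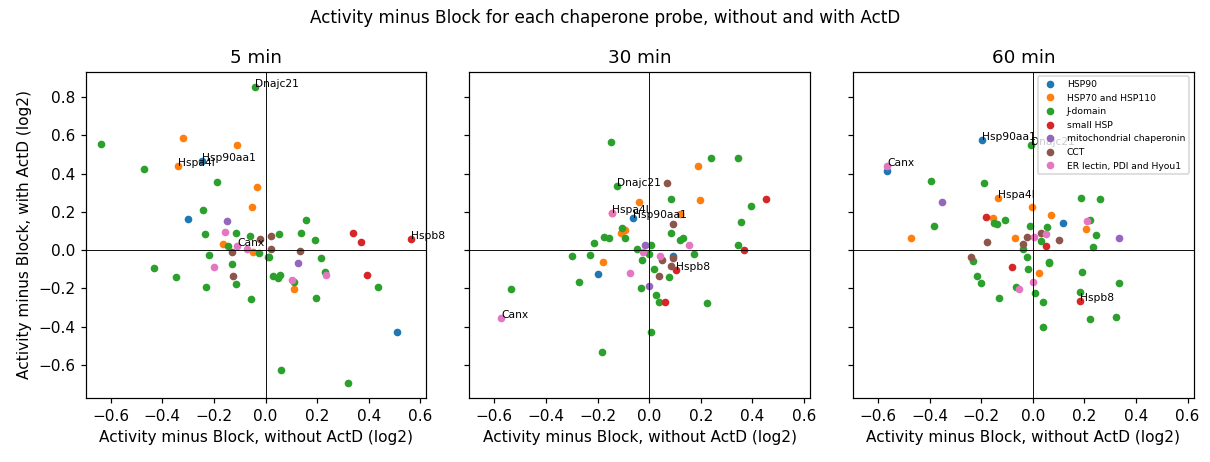
Activity minus Block (log2) for each of the 62 tested chaperone probes without ActD (horizontal axis) and with ActD (vertical axis), at 5, 30 and 60 min; each point is the difference of single arrays, coloured by role. At 5 and 60 min Hsp90aa1 and Hspa4l lie at the upper left, below 0 without ActD and above 0 with it.

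A z-fold rule adapted here from the study's methods was also applied. It asked for a change past 1.4 with the same sign in ActD and in vehicle cultures after scaling to equal totals. At 5 min it picked none of the 58 chaperone probes it could assess, beside 0.627% of 10040 probes (63). The paper reports more genes at this harvest, with a lower cut-off in its table, and its list was not reproduced here. At so low a share of all probes, the absence of chaperones says little about them. Past 1.4 in opposite directions were 4 chaperone probes, Dnajc2, Dnajc6, Hsp90ab1 and Hspa4l, beside 327 of all probes.

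Other folding genes, from a list of 56 regulators, co-chaperones and ER stress genes of which 38 (39 probes) were tested, are given by their calls. In later harvests against 5 min, 7 probes were higher (17.9%, beside 25.9% of all probes) and 17 lower (43.6%, beside 23.4%). With scaling to equal totals 12 were higher and 13 lower, beside 33.1% and 15.8% of all probes. Higher were both probes of Ppid (0.96 ± 0.09 and 0.71 ± 0.14), an HSP90-bound cyclophilin, Hsf2 (0.86 ± 0.13), Stip1 (0.19 ± 0.06), which links HSP70 to HSP90, Chordc1, Eif2ak3 and Syvn1. Lower, beside Bag3, were Ppp1r15a (-0.80 ± 0.09), the phosphatase subunit that ends the integrated stress response, and the prefoldin subunits Pfdn1 (-0.60 ± 0.06) and Pfdn5. The ER stress genes Atf4, Creld2, Manf, Sdf2l1 and Selenos were also lower, with 8 others of the list. Other ER stress genes went otherwise: Eif2ak3 and Syvn1 were among those higher, and Ddit3, Herpud1, Trib3 and Xbp1 were not called. At 5 min with ActD, 6 probes were lower (15.4%, beside 12.4% of all probes). Among them were both of Ppid (-0.70 and -0.67), Hsf2 (-0.77) and the HSP90 co-chaperone Chordc1 (-0.79). Another 7 were higher (17.9%, beside 7.95% of all probes), among them the HSP70 regulators Hspbp1 and Stub1. With scaling to equal totals 5 were lower and 1 higher, beside 12.2% and 2.06% of all probes. With median scaling 5 were lower and 0 higher, beside 17.5% and 0.695%, so the higher calls rest on the scaling. In neither direction was any of the 39 probes called for activity with or without ActD, with the limma test used throughout.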

How the data were processed

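RNA of 12 cultures was hybridised to Illumina RatRef-12 bead arrays, grouped by the deposited labels. The deposited intensity values were the authors' mean bead signals from BeadStudio, without background subtraction. The deposited detection p-values, from the same software of the authors, compared each probe with its array's negative controls. Here limma's neqc (version 3.58.1, R 4.3.3, offset 16) corrected the background from those p-values, quantile-normalized the intensities and took log2. The 11792 probes detected (p under 0.01) on 2 or more arrays were fitted with lmFit and eBayes with a variance trend, with treatment and harvest as factors (6 residual degrees of freedom) or with an added product of ActD and later harvest (5). Effects of ActD at 5 min and later, and harvests without ActD, were contrasts added after the values were seen. The first 15 members by p in each direction (the 5 lowest p where fewer than 5 passed) and a fixed set of well-known chaperones were named. Dnajb14, Hspa12a and Hspb2 were chosen after their values were seen. The members and gene lists were chosen with earlier results of these data known. Symbols came from the platform annotation, which named 1 gene for 13793 probes and none for 8730. A table of the same intensities that the authors scaled to equal totals served as an alternative and for the z-fold rule. There the log step and the z-fold formula were choices made here, with probes at a detection p under 0.1 on all 12 arrays. Other scalings, offsets, filters and variance options and leaving out each array were alternatives. The fits were tested on simulated data. The number of arrays limits the precision.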

Additional observations from a re-analysis of the deposited data

Results flagged for a closer look

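For 11 chaperones the effect of ActD at the later harvests differed from that at 5 min by the limma test of the difference (Benjamini-Hochberg over 11792 probes). The later effect minus the effect at 5 min, in log2 units, was 1.55 for Hsp90aa1, 0.998 for Hspa4l, 0.87 for Dnajc10, 0.81 for Dnajc2, 0.48 for Hspa9, 0.77 for Hspa13, 0.40 for Dnaja2, 0.49 for Hspd1, 0.88 for Dnajc21, 0.51 for Hsp90b1 and -0.79 for Dnajc8. In the first 10 the level at 5 min was lower with ActD than without it, while in Dnajc8, a dim probe, it was higher (0.51). The adjusted p ranged from 3.92e-06 for Hsp90aa1 to 0.0303 for Dnajc8. All 11 rest on the 2 arrays of 5 min with ActD, and Dnajc21 was not detected on the Block array of these.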

How the results depend on the processing

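Activity calls stayed at 0 under every alternative run. Without both 5 min ActD arrays, 15 members were called in later harvests against 5 min (11 higher, 4 lower) and 9 in 60 against 30 min. With median scaling, 3 members were called in 60 against 30 min, 22 in the difference of the ActD effects and 10 in later harvests against 5 min without ActD. In that last contrast Dnaja1 (-0.012) and Hspa5 (-0.0055) turned to just below 0, and neither was called. Median scaling moved the median of all probes in the difference of the ActD effects to 0.14, from -0.05. The cause of these changes was not tested. Leaving out 1 array at a time gave 0 to 4 calls for the ActD effect, 3 to 7 for 60 against 30 min, 5 to 13 for the difference of the ActD effects, 10 to 20 for ActD at 5 min, 0 to 1 for ActD later (1 without the Block array of 30 min with ActD) and 7 to 19 for later harvests without ActD. The z-fold rule picked 2 members at 30 min (Dnajb9 up, Canx down; 360 of 10040 probes, 3.59%). No paired analysis was possible because each group held 1 array and all shared replicate number 3, which leaves no replicate block; the fits compared treatments within harvests, with harvest as a factor. Probes near background, among them Hsp90ab1, Dnajb13, Dnajc8 and, on its lowest array, Dnajc21, limit how small a change can be seen.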
